A study of Mus musculus with 3 samples.

Results

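The cells described here are Lhx6-positive cortical interneurons of the newborn mouse, 173 of 36295 kept cells. Cells were kept if they had 1000 or more detected genes and if less than 10% of their UMIs were mitochondrial. A UMI, or unique molecular identifier, counts 1 captured RNA molecule. A kept cell was taken as a member with at least 1 UMI of Lhx6 and at least 1 UMI each of 2 or more of Gad1, Gad2, Dlx1, Dlx5, Dlx6os1, Maf and Erbb4. The members were thus selected on their counts of these 8 genes, whose presence in them is a description and not a finding. The Emx1-Cre mutant library held 7 members among 13199 kept cells, the hGFAP-Cre mutant library 75 among 13135 and the control library 91 among 9961.

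The study deleted Map2k1 and Map2k2, the genes of the kinases that activate ERK, and profiled the dorsal cortex with 10x Genomics 3' single-cell libraries, 1 for each of 3 genotypes. The Emx1-Cre; MAP2K1/2-dcko mutant expressed Cre from Emx1, which is active in dorsal cortical progenitors, and the hGFAP-Cre; MAP2K1/2-dcko mutant expressed it from the human GFAP promoter, which is active in radial glia. The control is described in the protocol as Map2k1 and Map2k2 flox, while its genotype label reads WT, and its labels name no Cre. In all 3 groups the dye FlashTag was put into the lateral ventricle at embryonic day 18, and cells positive for tdTomato were sorted from pups at postnatal day 2. The labels name neither the allele that carried tdTomato nor the number of animals in a library. A share below is therefore a share of sorted cells, and a difference between genotypes cannot be told apart from a difference in what the sort took in. Each genotype had 1 library. Genotypes therefore could not be tested against each other, and every 95% interval covers counting error only.

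LHX6 is a LIM-homeodomain transcription factor switched on by NKX2-1 in the medial ganglionic eminence, a ventral part of the embryonic forebrain. Neurons born there migrate tangentially into the cortex and mature into inhibitory interneurons that use GABA, many of which express somatostatin (Sst) or, later in postnatal life, parvalbumin (Pvalb). They lie outside the lineage of the Emx1-expressing dorsal progenitors, which make the excitatory neurons and glia of the cortex.

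The libraries held 84016524 UMIs in 13214 barcodes (Emx1-Cre), 89917586 in 13139 (hGFAP-Cre) and 85480826 in 11886 (control). The barcode with the fewest UMIs had 2644, 3065 and 500 UMIs in that order, so the control kept shallower cells. The median member had 4842 UMIs in the Emx1-Cre library, 5304 in the hGFAP-Cre library and 4635 in the control. Each pair of libraries shared 43 to 54 barcode sequences, and none of these belonged to a member. Xist, transcribed from the inactive X chromosome of females, had no UMI in members of either mutant and 1229 UMIs in control members, while Y-linked Ddx3y had 1, 23 and 0 UMIs in Emx1-Cre, hGFAP-Cre and control members. Sex thus differed along with genotype and cannot be told apart from it. Map2k1 had 0, 7 and 5 UMIs and Map2k2 had 14, 105 and 107 UMIs in Emx1-Cre, hGFAP-Cre and control members. 3' counts need not lie in a deleted part of these genes, and at this depth they do not show whether the members carried the deletions.

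The interneuron label was checked against genes that the rule did not use. Ranked by the ratio of the level in members over that in all other kept cells of the same library, and taking the lowest of the 3 libraries, the genes most like Lhx6 were Sst, Npy, Nxph1, Neb, Nrxn3, Rpp25, Ackr3, Slc32a1, Dlx1as and Rph3a. This rank leans on few Emx1-Cre counts, with 2 UMIs each for Neb, Ackr3 and Rph3a and 3 for Slc32a1. By the hGFAP-Cre and control libraries alone, Calb1, Sp9 and Crabp1 also ranked high. They had 1, 0 and 0 UMIs in Emx1-Cre members. Levels are given as CPM, a gene's share of the summed UMIs multiplied by 1000000. Sst stood at 1007 CPM in Emx1-Cre members, 1475 CPM in hGFAP-Cre members and 930 CPM in control members, against 2.97, 11.8 and 0.927 CPM in the other cells of the same libraries. Slc32a1, the vesicular GABA transporter, stood at 79.5, 52.0 and 96.1 CPM in Emx1-Cre, hGFAP-Cre and control members, against 0.536, 2.28 and 6.84 CPM in the other cells. In Lhx6-negative cells with at least 2 of the 7 other rule genes, Slc32a1 was at 23.5, 30.2 and 57.2 CPM. Nrxn3 was at 176, 204 and 409 CPM there, so these genes were not particular to members. Sst was at 8.10, 76.5 and 2.26 CPM in those cells. Nkx2-1, the upstream factor of Lhx6, had UMIs in 12 of 75 hGFAP-Cre and 20 of 91 control members, and in none of the 7 Emx1-Cre members. It bears on the lineage and not on the place of these cells. The word cortical rests on the dissected tissue, and whether each member was a cortical cell was not tested. At least 2 of 10 excitatory neuron markers had UMIs in 28.6%, 25.3% and 16.5% of Emx1-Cre, hGFAP-Cre and control members, against 56.8%, 59.7% and 62.4% of the other kept cells. Astroglia markers, at least 2 of 8, had UMIs in 14.3%, 29.3% and 16.5% of members, against 34.1%, 48.0% and 52.1% of the other kept cells. Their summed level was 6915, 4517 and 1651 CPM in Emx1-Cre, hGFAP-Cre and control members, against 9013, 6908 and 8483 CPM in the other cells. Their part in the differences between genotypes was not tested. Endothelial markers had no UMI in members of either mutant and summed to 1.81 CPM in control members. Cajal-Retzius markers summed to 212, 200 and 779 CPM in members, against 930, 402 and 250 CPM in the other kept cells. Microglia markers summed to 0, 238 and 1086 CPM, against 188, 386 and 668 CPM. Both classes were thus higher in members than in other cells in the control alone. At least 2 of 9 olfactory bulb interneuron markers had UMIs in 28.6%, 44.0% and 36.3% of Emx1-Cre, hGFAP-Cre and control members. The shares of other kept cells were 37.4%, 56.6% and 60.2%. For interneurons of the caudal ganglionic eminence, at least 2 of 8 markers had UMIs in 0%, 17.3% and 17.6% of members. These shares were 20.2%, 14.7% and 17.2% in other kept cells.

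Members were least frequent in the Emx1-Cre library. They made up 0.0530% of kept cells there (95% exact Clopper-Pearson interval 0.0213 to 0.109), 0.571% (0.449 to 0.715) in the hGFAP-Cre library and 0.914% (0.736 to 1.12) in the control. The Emx1-Cre share was 17.2-fold lower than the control share, a log2 ratio of -4.11 (-5.46 to -3.01), and the intervals of the 2 libraries lay far apart. The hGFAP-Cre share was 1.60-fold lower than the control share, a log2 ratio of -0.68 (-1.14 to -0.22). The hGFAP-Cre difference was smaller among deeper cells. Among cells with at least 2000 detected genes, 44 hGFAP-Cre and 49 control members remained, with a log2 ratio of -0.19. Among cells with at least 3100 UMIs, a limit chosen after the depths were seen, 74 hGFAP-Cre and 68 control members remained, with a log2 ratio of -0.39. With each cell thinned to 2500 UMIs, which left out 547 control cells and none of the mutants, the rule found 1 member in the Emx1-Cre library, 33 in the hGFAP-Cre library and 43 in the control. The hGFAP-Cre log2 ratio was then -0.86 (-1.56 to -0.17), so on thinned counts the difference was not smaller.

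Other cells with interneuron genes were also scarcer in the mutants. Lhx6-negative cells with at least 2 of the 7 other rule genes, a group that takes in the Dlx-expressing cells of the olfactory bulb lineage, made up 1.43% of kept cells in the Emx1-Cre library, 5.92% in the hGFAP-Cre library and 12.2% in the control. Members were 3.57% (1.45 to 7.22), 8.79% (6.98 to 10.9) and 6.96% (5.64 to 8.48) of all cells with at least 2 of these genes in the same order, with overlapping intervals. Cells with at least 3 of 6 microglia markers, a lineage outside both Cre drivers, made up 2.16%, 2.86% and 2.89% of kept cells. Cells with at least 3 of 6 endothelial markers, also outside both lineages, made up 0.402% (0.301 to 0.525), 0.480% (0.369 to 0.613) and 1.18% (0.981 to 1.42), so that a lower share in both mutants was also seen in a class without interneuron genes. A UMI of Lhx6 was seen in 0 of 285 microglia-marker cells of the Emx1-Cre library, 0 of 376 of the hGFAP-Cre library and 3 of 288 of the control. With 3 counts as the limit, counts of 0 allow shares of cells with a UMI of up to 1.05% and 0.798%, and the control share was 1.04%. The median microglia-marker cell was deeper than the median member, with 5272, 7179 and 11137 UMIs.

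**Figure D1:**
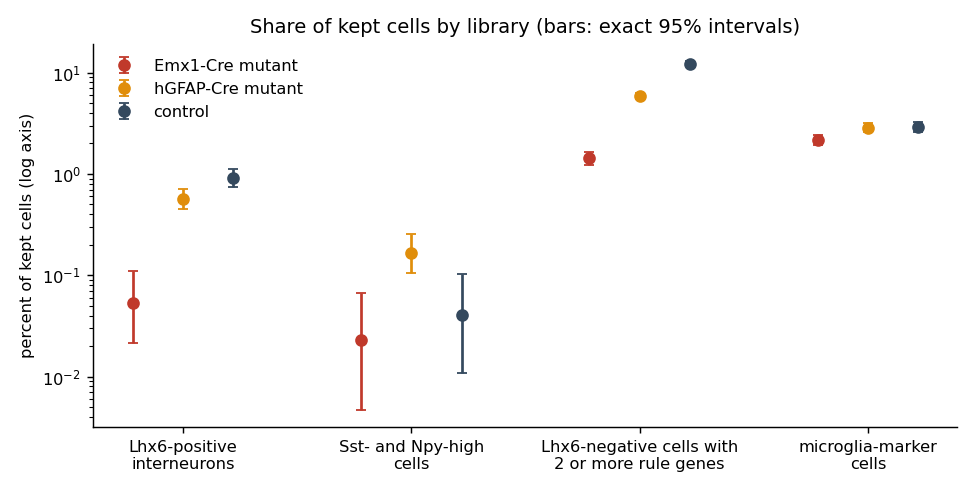
Percent of kept cells, on a log axis, in the Emx1-Cre, hGFAP-Cre and control libraries, for Lhx6-positive interneurons, cells high in both Sst and Npy, Lhx6-negative cells with at least 2 rule genes and microglia-marker cells. Points are 1 library each and bars are exact 95% intervals for counting error. Lhx6-positive interneurons were at 0.0530%, 0.571% and 0.914%, while microglia-marker cells were between 2.16% and 2.89%.

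At the edge of the rule, 10 hGFAP-Cre and 7 control members had 1 Lhx6 UMI and exactly 2 rule genes, as did 3 of the 7 Emx1-Cre members. Beyond it, 2 Emx1-Cre, 11 hGFAP-Cre and 14 control cells had Lhx6 with exactly 1 rule gene. Just outside, Sst was 6214 CPM in the Emx1-Cre cells and 5481 CPM in the hGFAP-Cre cells, and had no UMI in the control cells. Among members with exactly 2 rule genes Sst was 234, 4100 and 4205 CPM in Emx1-Cre, hGFAP-Cre and control members. In the mutants the rule thus left out some Lhx6-positive cells that were rich in Sst, and the members are not all Lhx6-positive interneurons of these libraries.

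Sst and Npy were concentrated in few members. Sst encodes the inhibitory peptide somatostatin and Npy encodes neuropeptide Y, which some somatostatin interneurons release together. At least 10 UMIs of both were found in 7 of 75 hGFAP-Cre members and 4 of 91 control members, and in none of the 7 Emx1-Cre members. The highest member had 191 Sst and 673 Npy UMIs in the hGFAP-Cre library, against 208 and 480 UMIs as the highest values in the control. The 5 highest members held 84.0% of all Sst UMIs of hGFAP-Cre members and 97.9% of those of control members, and 86.6% and 84.4% of the Npy UMIs. Without the cells high in both, Sst was 26.7 CPM in hGFAP-Cre members and 37.5 CPM in control members, and Npy was 529 and 465 CPM.

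**Figure D2:**
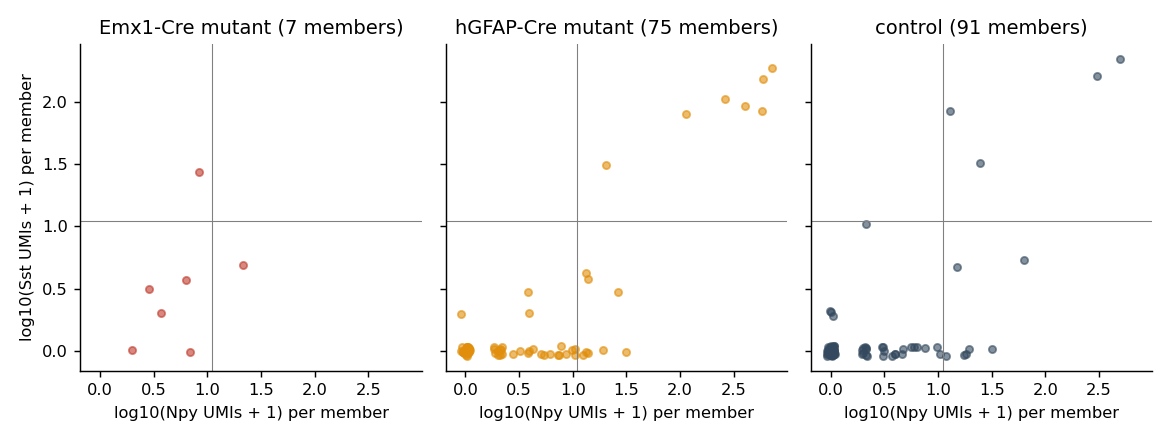
Sst UMIs against Npy UMIs in each member, both as log10 of UMIs plus 1, with a small random offset so that equal points can be told apart. The panels are the Emx1-Cre mutant, the hGFAP-Cre mutant and the control, and grey lines mark 10 UMIs. A group of 7 hGFAP-Cre and 4 control members lies in the upper right, and most others lie near 0 for Sst.

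The cells high in Sst and Npy were then counted among all kept cells, whatever their Lhx6 and rule genes, a count chosen after the values were seen. There were 22 in the hGFAP-Cre library, or 0.167% (0.105 to 0.253), 3 in the Emx1-Cre library, or 0.0227% (0.00469 to 0.0664), and 4 in the control, or 0.0402% (0.0109 to 0.103). The hGFAP-Cre share was higher than the control share with intervals just apart, while the Emx1-Cre and control intervals overlapped. Of these cells, 10 of 22 had an Lhx6 UMI in the hGFAP-Cre library, 1 of 3 in the Emx1-Cre library and 4 of 4 in the control. Nos1, the neuronal nitric oxide synthase of a long-range class of somatostatin neurons, was at 292 CPM in the hGFAP-Cre cells, 72.3 CPM (1 UMI) in the Emx1-Cre cells and 643 CPM in the control cells. In the members without high Sst and Npy, Nos1 was 4.44 CPM (hGFAP-Cre) and 5.63 CPM (control). Crabp1, a retinoic acid binding protein, had no UMI in the high cells of any library and was at 95.5 CPM (hGFAP-Cre) and 105 CPM (control) in the other members. It had UMIs in only 6 of 75 hGFAP-Cre and 6 of 91 control members, so no difference from the few high cells can be read.

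The promoter of Sst is shown because Sst set the members apart most. The window runs from 250 bases before to 50 bases after the RefSeq start of Sst (GRCm38.p6, chr16:23890795-23891094, minus strand), and capitals mark the cyclic AMP response element TGACGTCA, searched on both strands. It began 48 bases before the start and was found in 1.79% of the 32851 promoter windows in the table.

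Sst: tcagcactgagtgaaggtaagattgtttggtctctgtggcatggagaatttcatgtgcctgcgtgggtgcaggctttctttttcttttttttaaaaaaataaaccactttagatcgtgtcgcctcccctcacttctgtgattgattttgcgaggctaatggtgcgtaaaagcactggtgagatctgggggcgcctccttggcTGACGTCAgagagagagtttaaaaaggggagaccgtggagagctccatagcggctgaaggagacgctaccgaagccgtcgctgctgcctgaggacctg

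The same window of Npy (chr6:49822460-49822759, plus strand), printed for comparison, held no TGACGTCA.

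Npy: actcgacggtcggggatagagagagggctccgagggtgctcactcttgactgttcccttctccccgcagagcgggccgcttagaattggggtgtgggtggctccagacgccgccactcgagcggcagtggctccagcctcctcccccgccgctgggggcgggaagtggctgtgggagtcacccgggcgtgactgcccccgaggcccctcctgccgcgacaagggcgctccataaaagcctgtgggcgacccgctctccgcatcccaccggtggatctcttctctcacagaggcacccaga

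Sst (chromosome 16, 23889573 to 23890958) had UMIs in 5 of 7 Emx1-Cre members, 13 of 75 hGFAP-Cre members (17.3%, 9.57 to 27.8) and 10 of 91 control members (11%, 5.4 to 19.3), with overlapping hGFAP-Cre and control intervals. Npy (chromosome 6, 49822710 to 49829507) had UMIs in 7 of 7, 42 of 75 (56.0%, 44.1 to 67.5) and 36 of 91 members (39.6%, 29.5 to 50.4) in the same order. Among microglia-marker cells, which serve as the level from free RNA, Npy had UMIs in 2.46%, 1.86% and 3.82% of cells and Sst in 0.351%, 0% and 1.39%. Thinned to 2500 UMIs, Npy had UMIs in 45.3% of hGFAP-Cre and 32.4% of control members, with the same order as before. The Npy intervals of these libraries overlapped before and after thinning. Nxph1, a neurexin ligand of these interneurons, had UMIs in 27 of 75 hGFAP-Cre members (36%) and 51 of 91 control members (56%), and after thinning in 22.7% and 36.5%. Its intervals also overlapped, before and after thinning. Pvalb and Vip, which mark parvalbumin cells and a class from the caudal ganglionic eminence, had no UMI in any member, which, with 3 counts as the limit, allows shares of cells with a UMI of up to 42.9% in Emx1-Cre, 4% in hGFAP-Cre and 3.30% in control members.

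The 7 Emx1-Cre members are described cell by cell, since together they held 37744 UMIs, at which 50 CPM is 1.89 UMIs. Their Sst counts were 28, 4, 3, 2, 1, 0 and 0 UMIs and, for the same cells in the same order, their Npy counts were 8, 20, 5, 2, 3, 1 and 6 UMIs. One cell, with 7000 UMIs, carried 6 Maf, 3 Dlx5, 2 Slc32a1 and 28 Sst UMIs, genes known from somatostatin interneurons. It held 2 of 7 Cajal-Retzius markers, among them Reln with 5 UMIs, which is also listed here as an interneuron subtype gene. Another, with 6724 UMIs, had Gad1, Gad2, Erbb4, Maf and 20 Npy UMIs together with 4 Neurod6 and 2 Neurod2 UMIs, genes of excitatory neurons. The deepest, with 9395 UMIs, was a predicted doublet and held UMIs of 6 of 8 astroglia markers, including 13 of Slc1a3.

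Among the rule genes, Maf and Erbb4 differed most between hGFAP-Cre and control members. Maf, a transcription factor of somatostatin and parvalbumin interneuron precursors (chromosome 8, 115682942 to 115707794), was 274 CPM (95% Poisson interval 230 to 324) in hGFAP-Cre members and 857 CPM (782 to 938) in control members. The log2 ratio was -1.63, computed here and below after adding 5 CPM to both levels. It was -1.66 without the members that showed signs of another cell, -1.57 in all other kept cells and -1.37 in microglia-marker cells, which also express Maf. Erbb4, the neuregulin receptor of migrating interneurons (chromosome 1, 68032186 to 69108059), was 114 CPM (86.4 to 148) in hGFAP-Cre members and 272 CPM (230 to 319) in control members, a log2 ratio of -1.22. It had UMIs in 34 of 75 hGFAP-Cre members (45.3%) and 67 of 91 control members (73.6%), and after thinning in 28.0% and 54.1%. In microglia-marker cells, the share was 1.60% in the hGFAP-Cre library and 2.43% in the control.

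Gad1 and Gad2, the GABA-synthesising enzymes, had intervals that overlapped. Gad1 was 110 CPM in hGFAP-Cre and 125 CPM in control members (log2 ratio -0.18), and Gad2 was 214 and 254 CPM (-0.24). Dlx1, a homeobox factor of forebrain GABA neurons, was 134 CPM in hGFAP-Cre and 237 CPM in control members (-0.80). Dlx5, a relative, was 96.1 and 158 CPM (-0.69) with overlapping intervals, and neither passed 2-fold. The non-coding RNA Dlx6os1 was 108 CPM in hGFAP-Cre members and 239 CPM in control members (-1.11), but on thinned counts its log2 ratio was 0.044. Since members had to carry these genes, such levels describe the cells chosen. Lhx6 itself (chromosome 2, 36081953 to 36105408) was 260 CPM (217 to 309) in hGFAP-Cre and 350 CPM (302 to 403) in control members (-0.42).

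Over all genes, 3988 were measured, at 50 CPM or more in members of at least 1 of the 2 libraries. Of these, 265 (6.64%) were at least 2-fold higher and 336 (8.43%) at least 2-fold lower in hGFAP-Cre members, 15.1% in all, and the median log2 ratio was -0.05. With 19 hGFAP-Cre and 14 control members left out for signs of another cell, 192 of 3870 genes were at least 2-fold higher and 366 lower. These signs, chosen after the values were seen, were a doublet call or UMIs of at least 2 markers of microglia, ependymal, mural, endothelial or Cajal-Retzius cells or of oligodendrocyte precursors. The members without them were 0.0379% of kept cells in the Emx1-Cre library, 0.426% in the hGFAP-Cre library and 0.773% in the control.

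The genes at the extremes came mostly from single members. Of the 10 highest genes outside the lists (Meig1, Rsph1, Dynlrb2, Lgals3, Pifo, S100a6, Spint2, Mt2, Ccdc113 and Efcab10), 9 had over 50% of their hGFAP-Cre UMIs in 1 member, from 54.8% for Pifo to 89.8% for Lgals3. Several of these genes build motile cilia, and 5 of 75 hGFAP-Cre members but 0 of 91 control members had UMIs of at least 2 of 5 ependymal markers, whose summed level was 444 CPM in hGFAP-Cre and 1.81 CPM in control members. In all other kept cells these markers summed to 404 and 30.2 CPM, and their part in the members' ratios was not tested. Of the 10 lowest genes (Cx3cr1, Nhlh2, Ccl2, Olig1, Csf1r, Apoc1, Fcgr1, Clmp, Cwc22 and Sepp1), 8 had over 50% of their control UMIs in 1 member. Microglia markers summed to 238 CPM in hGFAP-Cre and 1086 CPM in control members, with 3 members each holding at least 2 of the 6 markers. The other 2 were Cwc22, a splicing factor with UMIs in 8 of 75 hGFAP-Cre and 49 of 91 control members, and Clmp, an adhesion molecule with UMIs in 1 hGFAP-Cre and 21 control members. The log2 ratio of Cwc22 was -2.88 in members and -2.69 in all other kept cells.

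Transcription factors of the medial ganglionic eminence lineage were lower or little different in hGFAP-Cre members. Of 14 listed, 12 were measured, 4 were at least 2-fold lower, Maf and Cux2 among them, none was 2-fold higher and the median log2 ratio was -0.83. Cux2 was 82.1 CPM in hGFAP-Cre members and 205 CPM in control members (-1.27). Sox6, which acts after Lhx6 in positioning these cells, was 78.1 and 96.1 CPM (-0.28), and Satb1, which promotes somatostatin fate, was 56.0 and 36.2 CPM (0.57), both with overlapping intervals. In all other kept cells the same 12 genes had a median log2 ratio of -0.54. For all 3988 genes measured in members, 8.43% were at least 2-fold lower and 6.64% higher. Lhx6 and Maf had chosen the members, and the other 10 genes had a median of -0.83 with 3 past 2-fold lower. Of the wider interneuron factor list 6 of 9 were measured, 4 of them were at least 2-fold lower, and the median was -1.10, against -1.13 in all other kept cells. Dlx1, Dlx5 and Dlx6os1 of these are rule genes, which leaves 3 genes, all past 2-fold lower. Dlx2 was 136 CPM in hGFAP-Cre and 361 CPM in control members (-1.37).

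Of 21 subtype genes 9 were measured, with 1 at least 2-fold higher (Npy), 4 at least 2-fold lower (Nxph1, Calb2, Ndnf and Reln) and a median of -0.39. Without members showing signs of another cell 7 were measured, with 1 past 2-fold higher, 1 lower and a median of 0.41, so the direction of the list turned. Over all 3988 measured genes 6.64% were at least 2-fold higher and 8.43% lower, and without those members 192 and 366 of 3870. Npy was 5634 CPM in hGFAP-Cre members and 1916 CPM in control members (1.55), with 23.9% and 45.4% of UMIs in 1 member. Nxph1 was 92.1 and 236 CPM (-1.31), and was spread over members, with at most 10% of UMIs in any one. Reln, Ndnf and Calb2, which also mark Cajal-Retzius cells, had 54.7%, 51.1% and 35.3% of their control UMIs in 1 member. Without the members showing signs of another cell, Calb2 was 112 CPM in hGFAP-Cre and 79.4 CPM in control members (0.47), the opposite direction. Reln, Ndnf and Calb2 were themselves among the Cajal-Retzius markers used to leave members out. Their values without those members, and the turn of the list, thus depend in part on the filter itself. Calb1, a calcium buffer of somatostatin cells, was 82.1 and 109 CPM (-0.39) with overlapping intervals.

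Genes of synapse building and neuronal signalling tended to be lower in hGFAP-Cre members. Of 13 measured synapse genes 6 were at least 2-fold lower and none higher (median -0.65, and -0.72 in all other kept cells). Among all 3988 genes measured in members, 8.43% were at least 2-fold lower and 6.64% higher. Nrxn3, a presynaptic adhesion molecule, was 252 CPM in hGFAP-Cre and 604 CPM in control members (-1.24), and Nlgn2, its partner at inhibitory synapses, was 24.0 and 68.9 CPM (-1.35). Shank1, a scaffold of excitatory synapses, was 40.0 and 114 CPM (-1.40). On thinned counts Nlgn2 was at 0.054 and Shank1 at 0.018, so their direction did not hold. Of 6 measured glutamate receptor genes (median -0.78) only Grin2b, an NMDA receptor subunit, was past 2-fold, at 84.1 CPM in hGFAP-Cre and 207 CPM in control members (-1.25). None of 5 measured GABA receptor genes was past 2-fold in either direction (median -0.40). Of 5 measured genes of GABA synthesis, packaging and uptake (median -0.56) only Abat, which degrades GABA, was past it (-1.31), and 2 of the 5, Gad1 and Gad2, are rule genes. Of 4 measured ion channel genes (median -1.23) 3 were past 2-fold lower, among them Cacna2d2, a calcium channel subunit, at -1.71, against 0.37 without members with at least 2 excitatory neuron markers. Without members showing signs of another cell, 1 of 5 measured channel genes was past 2-fold lower, and the median was -0.69. Cacna2d2 then had 3 and 8 UMIs in hGFAP-Cre and control members and was not measured. No chloride cotransporter gene was measured.

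Most genes of tangential migration lay within 2-fold between hGFAP-Cre and control members. Of 14 measured migration and guidance genes 4 were at least 2-fold lower (Efna5, Robo2, Erbb4 and Epha4), none was higher and the median was -0.64, against -0.62 in all other kept cells. Without Erbb4, a rule gene, 3 of 13 were past 2-fold lower and the median was -0.60. The share at least 2-fold lower over all 3988 measured genes was 8.43%. Robo2, a Slit receptor, was 52.0 CPM in hGFAP-Cre members and 138 CPM in control members (-1.32). Cxcr4 and Ackr3, the receptors of the chemokine CXCL12 that guides these cells, were 68.0 and 66.0 CPM in hGFAP-Cre members, against 77.9 and 76.1 CPM in control members, with log2 ratios of -0.18 and -0.19 and overlapping intervals. Of 4 measured growth factor receptors (median -0.84, and -0.64 without Erbb4) Erbb4 and Igf1r (-1.05) were past 2-fold lower, while Ntrk2, the BDNF receptor, was 198 and 165 CPM (0.26).

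**Figure D3:**
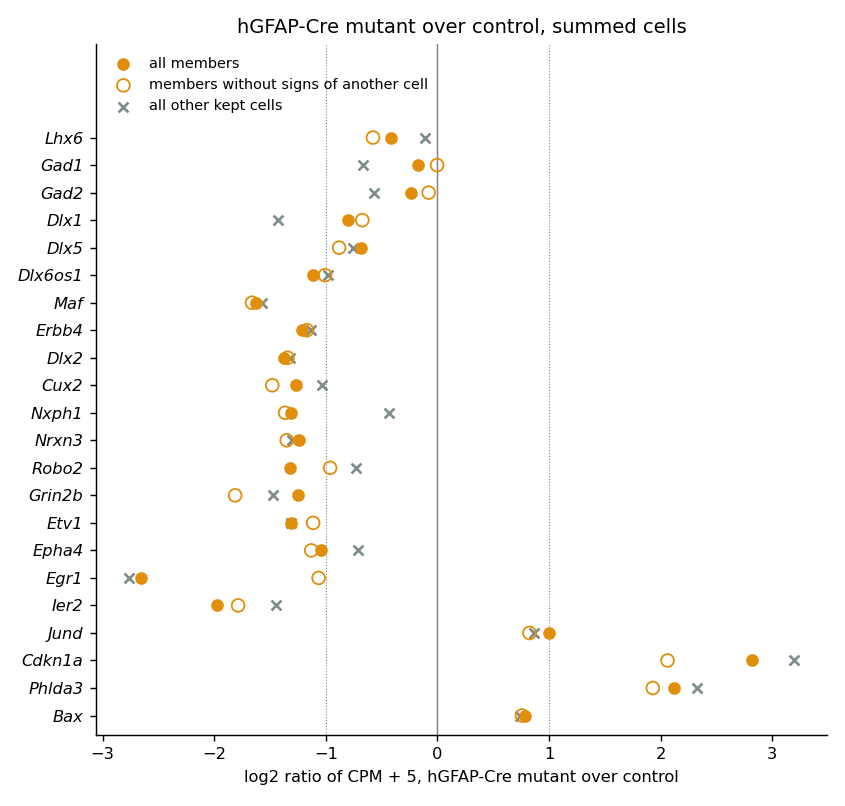
Log2 ratio of CPM plus 5, hGFAP-Cre mutant over control, for 22 genes in all members (filled points), in members without signs of another cell (open circles) and in all other kept cells (crosses). Dotted lines mark 2-fold. Maf stands at -1.63 in members and -1.57 in other cells, and Cdkn1a at 2.82 and 3.20, so that these differences were also seen outside the members.

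ERK response and immediate early genes differed in both directions. Over all 3988 measured genes 6.64% were at least 2-fold higher and 8.43% lower. Of 4 measured ERK response genes (median -0.26) Etv1, an ETS factor, was 62.0 CPM in hGFAP-Cre and 161 CPM in control members (-1.31), and Epha4 was 102 and 216 CPM (-1.04). Phlda1 was 70.1 and 16.3 CPM (1.82), the reverse direction, and Spred1, an inhibitor of RAS signalling, was 62.0 and 41.7 CPM (0.52). Without members showing signs of another cell 5 were measured, with 3 past 2-fold lower, 1 higher and a median of -1.11. Among 10 measured genes of the cascade (median -0.10) 2 were past 2-fold lower, among them Mapk3, which encodes ERK1, at 16 CPM in hGFAP-Cre and 59.8 CPM in control members (-1.63). Of 9 measured immediate early genes Egr1, Ier2 and Fosb were past 2-fold lower and Jund higher, with a median of -0.20. Without members showing signs of another cell 8 were measured, with 2 past 2-fold lower, 0 higher and a median of -0.12. Fosb then had 10 and 13 UMIs in hGFAP-Cre and control members and was not measured. Egr1, a zinc finger factor induced by activity and ERK, was 36 CPM (21.4 to 56.9) in hGFAP-Cre members and 254 CPM (213 to 299) in control members (-2.66). It had UMIs in 12 of 75 and 24 of 91 members. Its log2 ratio was -1.06 without members showing signs of another cell, with overlapping intervals, and -2.76 in all other kept cells. Jund was 1459 and 727 CPM (1.0), was at 0.82 without members showing signs of another cell, and had UMIs in 74 of 75 and 78 of 91 members.

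Of 5 measured p53 targets and apoptosis genes 2 were at least 2-fold higher and none lower, with a median of 0.78 in members and 0.74 in all other kept cells. Among all 3988 genes measured in members, 6.64% were at least 2-fold higher and 8.43% lower. Cdkn1a, the cell cycle inhibitor p21 (chromosome 17, 29090976 to 29100727), was 196 CPM (159 to 239) in hGFAP-Cre members and 23.6 CPM (12.5 to 40.3) in control members (2.82), and had no UMI in the 7 Emx1-Cre members, too few to show its absence. It had UMIs in 18 of 75 hGFAP-Cre members (24.0%) and 6 of 91 control members (6.59%), and after thinning in 17.3% and 1.35%. Its share in microglia-marker cells was 52.4% in the hGFAP-Cre library and 42.7% in the control, above that in members, and the part of free RNA in the members' counts was not tested. Without members showing signs of another cell Cdkn1a was 105 CPM in hGFAP-Cre and 21.4 CPM in control members (2.06), and the list had a median of 0.32 over 4 genes with 1 past 2-fold higher. Phlda3, a p53 target that restrains AKT, was 72.1 and 12.7 CPM (2.12). It had UMIs in 16 of 75 hGFAP-Cre and 7 of 91 control members, with overlapping intervals. Without members showing signs of another cell it had 11 and 2 UMIs and was not measured. Bax, which opens the mitochondrial membrane in apoptosis, was 558 and 323 CPM (0.78) and had UMIs in 73 of 75 and 64 of 91 members.

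The upstream of 2 Cdkn1a start windows in the RefSeq table is printed because it holds letters that resemble a p53 site, a sequence bound by the factor p53 (GRCm38.p6, chr17:29090729-29091028, plus strand). Capitals mark CATG, any 6 bases and CATG again, the paired cores of p53 sites, a pattern that reads the same on both strands. It was found in 0.712% of promoter windows, and neither the second Cdkn1a window nor those of Bax and Phlda3 held it. A match of letters shows no binding.

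Cdkn1a: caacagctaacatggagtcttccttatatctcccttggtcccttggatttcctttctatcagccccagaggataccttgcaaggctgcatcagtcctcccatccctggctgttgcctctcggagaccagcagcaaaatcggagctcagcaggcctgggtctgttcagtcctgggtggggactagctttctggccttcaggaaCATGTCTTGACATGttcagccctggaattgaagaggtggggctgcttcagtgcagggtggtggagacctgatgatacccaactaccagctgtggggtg

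**Figure D4:**
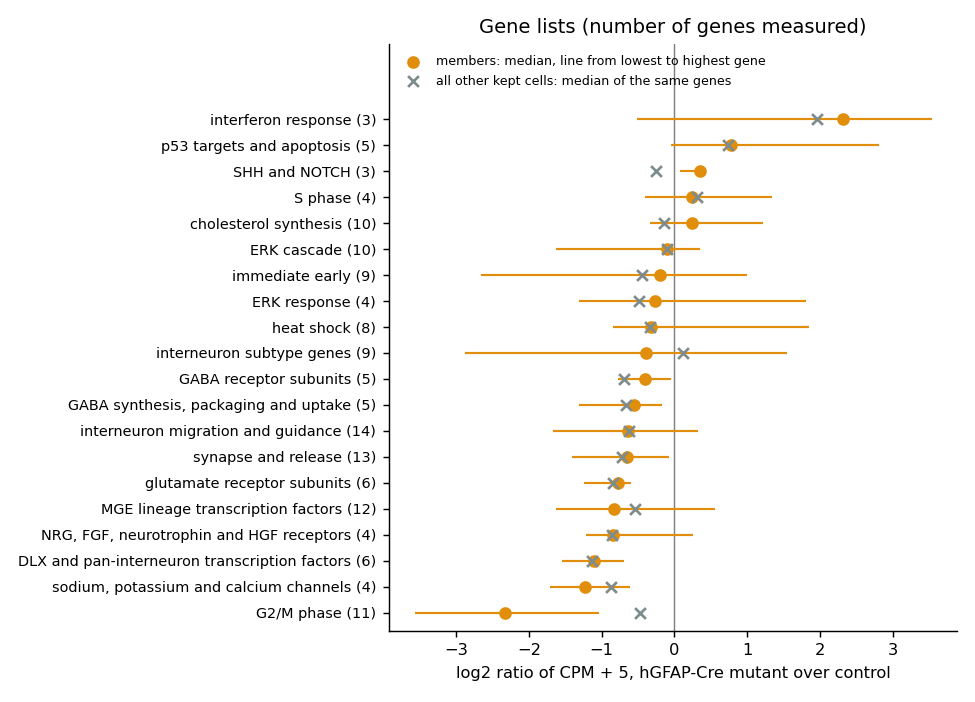
Median log2 ratio of CPM plus 5, hGFAP-Cre mutant over control, for each gene list with at least 3 measured genes (their number in brackets). Points are medians in members, lines run from the lowest to the highest gene of the list, and crosses are the medians of the same genes in all other kept cells. Medians in members ran from -2.33 for G2/M genes to 2.32 for interferon response genes.

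The lists at both ends of this range rested on few cells. Their counts stand beside 6.64% of all 3988 measured genes at least 2-fold higher and 8.43% lower. All 11 measured G2/M genes, which drive mitosis, were at least 2-fold lower in hGFAP-Cre members, with a median of -2.33, also with Ccnb1, which had no UMI there, set at the limit of 3 UMIs. Mki67 had UMIs in only 2 of 75 hGFAP-Cre and 6 of 91 control members, and Ube2c had 39.4% of its control UMIs in 1 member. Without members showing signs of another cell only Hmgb2 of the list was measured, at 146 and 150 CPM (-0.04). Of 3 measured interferon response genes Ifitm3 (3.54) and Bst2 (2.32) were past 2-fold higher, and none was measured without those members. Of 4 measured S phase genes (median 0.24) Pcna, a clamp of DNA replication, was 86.1 CPM in hGFAP-Cre and 30.8 CPM in control members (1.35), and was at 1.44 without those members. Of 8 measured heat shock genes (median -0.32) Cryab was past 2-fold higher (1.85), and was at 0.30 without them. The cholesterol synthesis list had a median of 0.24 over 10 genes with Idi1 at 1.22, and 3 SHH and NOTCH genes had a median of 0.35.

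Prm1, a sperm protamine, had 175 UMIs in hGFAP-Cre members and none in Emx1-Cre or control members, at least 64.4-fold higher than the control when 3 UMIs are taken as its limit. It had UMIs in 21 of 75 hGFAP-Cre members (28.0%, 18.2 to 39.6), against 11.2% of microglia-marker cells and 39.9% of all other kept cells of that library. Without members showing signs of another cell it had 45 UMIs in 8 of 56 hGFAP-Cre members (14.3%, 6.38 to 26.2), at least 16.7-fold above the control, and an interval that takes in the share of microglia-marker cells. A share at that level is not told apart from free RNA. In all other kept cells Prm1 had UMIs in 39.9% of hGFAP-Cre, 0.0227% of Emx1-Cre and 0% of control cells. It was thus almost confined to the hGFAP-Cre library, in members and other cells alike. Whether these UMIs came from the native Prm1 gene was not tested.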

How the data were processed

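The authors deposited UMI counts made by Cell Ranger 5.0.0, per the file headers. The build was mm10, per the submitters' processing notes. Each library listed 27998 genes, of which 98.7% matched GENCODE M21 (GRCm38) by identifier. From these counts, cells were filtered and members selected as stated, and member counts were summed per library and scaled to CPM. Log2 ratios used a pseudocount of 5 CPM, for genes at 50 CPM or more in either library, and sex-linked, mitochondrial and haemoglobin genes were left out of gene counts. A gene at a log2 ratio of 1 or more in size counted as past 2-fold. Emx1-Cre members were too few for such counts, although both mutants had been planned. Doublets were predicted with Scrublet in scanpy 1.11.5, which marked 7.64% (Emx1-Cre), 8.71% (hGFAP-Cre) and 4.44% (control) of cells, and were kept in the main values. Intervals are exact Clopper-Pearson or Poisson 95% intervals. PCR duplicates were collapsed by UMIs, and intervals and the limit of 3 counts cover counting error only. The code was tested on simulated data. Python 3.11.15, numpy 2.4.6, scipy 1.17.1 and pandas 2.3.3 were used.

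Named genes were the rule genes, Map2k1, Map2k2, Prm1, sex-linked genes, up to 4 measured genes per list with the largest log2 ratio, the 10 highest and 10 lowest genes outside the lists whose intervals lay apart (ribosomal, histone and unnamed genes left out) and the 10 genes most like Lhx6. Other genes, such as Nos1, Crabp1, Cxcr4 and list genes with small ratios, were named after their values were seen. The members and the 21 gene lists were chosen with earlier results of these data known. Alternatives covered doublets, depth, stricter rules, pseudocounts, CPM limits and the fold. Some items within this rule are not reported here.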

Additional observations from a re-analysis of the deposited data

How the results depend on the processing

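No paired analysis was possible because each genotype had 1 library. The Emx1-Cre share of members over control kept its direction under every alternative run and moved beyond its interval only on thinned counts, at -5.91, with 1 member left. The hGFAP-Cre share did so only with at least 2000 detected genes, at -0.19. The counts of genes at least 2-fold higher and lower were 449 and 751 on thinned counts, 580 and 711 with genes at 20 CPM or more, 138 and 145 with genes at 100 CPM or more, and 660 and 870 at 1.5-fold, and 184 were lower with a pseudocount of 20 CPM. Fewer genes are measured at the stricter limits by construction, and the cause of the other shifts was not tested. Median log2 ratios moved as follows. G2/M genes were at -3.24 without predicted doublets, -3.19 with at least 2 Lhx6 UMIs, -1.0 on thinned counts and -0.035 without signs of another cell. SHH and NOTCH genes were at -0.14 without doublets, -0.42 with 2 Lhx6 UMIs, -0.26 thinned, -0.50 without members with at least 2 excitatory markers, -0.26 without those with 2 microglia markers and -0.17 as a mean of the members' own CPM. Glutamate receptors were at -0.56 with 2000 genes and -0.53 with at least 3 rule genes, and GABA synthesis genes at -0.12 with 3 rule genes. Channels were at -0.56 thinned and -0.69 without signs of another cell. Growth factor receptors were at -1.31 without excitatory-marker members and -1.32 as a mean of the members' CPM, immediate early genes at 0.057 without excitatory-marker members, interferon genes at 3.66 without microglia-marker members and cholesterol genes at -0.11, subtype genes at 0.41, ERK response genes at -1.11 and p53 targets at 0.32 without signs of another cell. Single genes that changed sign were Cryab (-2.24), Dlx6os1 (0.044), Fcgr1 (0.26), Idi1 (-0.53), Nlgn2 (0.054), Sepp1 (3.05) and Shank1 (0.018) on thinned counts; Cacna2d2 (0.37), Ndnf (3.42), Nhlh2 (0.069) and Reln (1.04) without excitatory-marker members; Apoc1 (0.88) and Sepp1 (0.88) without microglia-marker members; Calb2 (0.47), Top2a (0.75) and Ube2c (0.91) without signs of another cell; Ndnf (0.048) as a mean of the members' CPM; and Apoc1 with 2 Lhx6 UMIs (0.17) or without its highest member (0.41). Leaving out members with microglia markers, with signs of another cell or with the most UMIs of a gene, and the limit of 3100 UMIs, were chosen after seeing the data. Interferon genes gave no value without signs of another cell. With 75 and 91 cells, a gene at 50 CPM rests on 25 UMIs in hGFAP-Cre and 27.6 in control members, and in the Emx1-Cre library on 1.89.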

Other observations

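Without the members that showed signs of another cell, 56 hGFAP-Cre and 77 control members were left, and the genes outside the lists that then differed most, chosen after their values were seen, were others. Dbi, which encodes a binding protein of acyl-CoA and of the benzodiazepine site of GABA receptors, had 599 UMIs in hGFAP-Cre members and 105 in control members, a log2 ratio of 2.65 in members and 1.25 in all other kept cells. Mt1, a metallothionein that binds zinc, had 60 and 10 UMIs (2.55, and 1.91 in other cells). Astroglia markers were not used in leaving members out, and they summed to 1918 CPM in these hGFAP-Cre members and 910 CPM in these control members, with Slc1a3, a glutamate transporter of astroglia, at 58 and 14 UMIs (2.08). Their part in the values of Dbi and Mt1 was not tested. Neurog2 and Eomes, transcription factors of excitatory neuron progenitors, had 17 and 20 UMIs in hGFAP-Cre members, against 0 and 1 UMIs in control members. Each had UMIs in only 5 of the 56 hGFAP-Cre members. Their log2 ratios in all other kept cells were 2.33 and 1.38. Excitatory neuron markers were not used in leaving members out either, and their part in these values was not tested. Cwc22 had 6 and 54 UMIs (-2.74) and PISD, a mitochondrial enzyme of phospholipid synthesis, 6 and 50 UMIs (-2.64). The log2 ratio of PISD was -3.01 in all other kept cells and -3.34 in microglia-marker cells.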
